A study of Mus musculus with 8 samples.

Results

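Lin28a, Lin28b and 7 genes of the same circuit (Hmga1, Hmga2, Igf2bp1, Igf2bp2, Igf2bp3, Trim71 and Dis3l2) were followed through 8 clones of mouse induced pluripotent stem cells (iPSCs). These 9 genes, of 21427 gene symbols with a record in the count table, were chosen by their standing as Lin28 genes or as known let-7 targets. Dis3l2 is neither, and stands in the set as the nuclease of the circuit. Where a gene had several RefSeq records, the record with the highest mean count over all 8 clones was used, so that the 9 genes are represented by 9 of their 23 records. Because that choice used the counts, the levels of the genes are given as a description without a test.

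The clones labelled TKO (35, 37, 47 and 48) lacked all 3 mouse Piwi genes, Miwi, Mili and Miwi2, which encode the proteins that bind piRNAs in the male germ line. The clones labelled Ctrl (33, 34, 41 and 43) came from littermate embryos that were heterozygous at all 3 loci, although the study's figure legends also allow wild type. All 8 were made from embryonic fibroblasts of mixed C57BL/6-s129 background that carried the Oct4-GFP reporter, by retroviral OCT4, SOX2, KLF4 and c-MYC. They were picked and grown on inactivated mouse embryonic fibroblast (MEF) feeders in medium with LIF, so that feeder RNA can be in each library. Each sample was a separately picked clone. The embryo behind each clone is not given in the sources used here, so that the p-values measure the spread between clones. The clone numbers fall into a series of the thirties (TKO 35 and 37, Ctrl 33 and 34) and a series of the forties (TKO 47 and 48, Ctrl 41 and 43). The meaning of the numbers is not given in the labels, and each series holds 2 clones of each genotype.

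LIN28A and LIN28B are RNA-binding proteins that hold down the let-7 miRNAs by binding the loop of let-7 precursors. Precursors bound by LIN28A are then tailed with uridines and degraded by the exonuclease DIS3L2. Mature let-7 in turn represses Lin28a, Lin28b, Hmga2, the Igf2bp genes and Trim71 through matches in their 3′ UTRs, so that the circuit is double negative. Pluripotent cells are known for high LIN28 and little mature let-7, and differentiated cells, fibroblasts among them, for the reverse.

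The mature let-7 sequences are shown first because the seed (bases 2 to 8, in capitals) defines which transcripts can be paired. Of the 11 mature names in the RefSeq annotation of GRCm38.p6, 10 share the seed GAGGUAG and mmu-let-7j alone has GAGGUAU.
mmu-let-7a-5p: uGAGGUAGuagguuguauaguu
mmu-let-7g-5p: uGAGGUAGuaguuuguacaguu
mmu-miR-98-5p: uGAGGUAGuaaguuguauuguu
mmu-let-7j: uGAGGUAUuaguuugugcuguuau
The hairpin of let-7g (chr9:106178840-106178927, plus strand) is shown with the letters GGAG in capitals, the motif at which LIN28 binds the precursor. Of the 11 hairpins with both arms listed, 8 hold GGAG between the arms.
Mirlet7g: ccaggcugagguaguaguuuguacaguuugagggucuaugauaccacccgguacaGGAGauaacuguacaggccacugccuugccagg

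The members' own 3′ UTRs were searched on the sense strand for the 8mer CTACCTCA, the 7mer-m8 CTACCTC and the 7mer-A1 TACCTCA, each position being counted once under its longest form. Of 19915 genes with an annotated 3′ UTR (GENCODE vM1, mm9), 3.02% held an 8mer and 14.0% held any of the 3 forms. Hmga2 had 7 matches, Lin28b and Igf2bp1 had 5 each, Trim71 had 3, Lin28a and Igf2bp2 had 2 each, and Igf2bp3 and Hmga1 had 1 each. Dis3l2, the nuclease of the circuit, had none in a 3′ UTR of 352 bases. Among 3′ UTRs within 0.7 to 1.3 times the length of the member's own, as many matches as in Hmga2 occurred in 0.0963%, as many as in Trim71 in 0.145%, as many as in Lin28b in 0.299% and as many as in Igf2bp1 in 1.11%. The share was 4.84% for Lin28a and 2.83% for Igf2bp2, and 22.7% of comparable 3′ UTRs had at least the single match of Igf2bp3. Apart from Dis3l2, the genes had been chosen as Lin28 genes or known targets, so these shares describe the choice. The 8mers are printed below in mm9, with the bases that pair with the seed and the A opposite its first base in capitals.
Lin28a (chr4:133561104-133561125, minus strand): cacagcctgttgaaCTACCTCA
Lin28a (chr4:133560466-133560487, minus strand): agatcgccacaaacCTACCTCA
Lin28b (chr10:45100828-45100849, minus strand): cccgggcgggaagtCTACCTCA
Hmga2 (chr10:119801280-119801301, minus strand): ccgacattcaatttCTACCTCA
Igf2bp1 (chr11:95823092-95823113, minus strand): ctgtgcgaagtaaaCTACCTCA
Igf2bp1 (chr11:95820671-95820692, minus strand): agcagtgctattaaCTACCTCA
Igf2bp1 (chr11:95820077-95820098, minus strand): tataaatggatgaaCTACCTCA
Igf2bp2 (chr16:22059546-22059567, minus strand): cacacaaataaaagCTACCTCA
Igf2bp3 (chr6:49036786-49036807, minus strand): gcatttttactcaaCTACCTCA
Trim71 (chr9:114421590-114421611, minus strand): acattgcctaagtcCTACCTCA
Trim71 (chr9:114421494-114421515, minus strand): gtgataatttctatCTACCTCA
The 8mers of Lin28b and Hmga2 lay close to the end of the coding sequence, the capitals starting at bases 36 and 58 of the 3′ UTR, while those of Igf2bp1 were spread from base 1715 to base 4730.

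**Figure D1:**
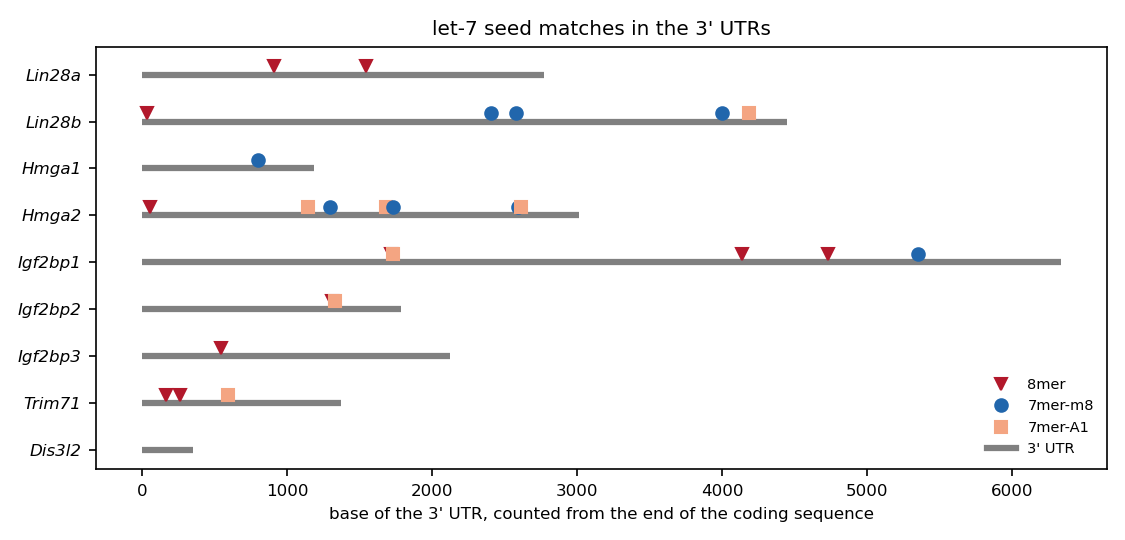
The 3′ UTR of each of the 9 genes is drawn to scale as a grey line (x axis, base of the 3′ UTR from the end of the coding sequence), with let-7 8mers as triangles, 7mer-m8 matches as circles and 7mer-A1 matches as squares. Hmga2 carries 7 matches, and Dis3l2 carries none.

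The libraries held between 24593995 and 52457455 counted reads in TKO clones and between 8983203 and 24688324 in Ctrl clones. Counts were scaled by size factors, and such normalized counts are the unit used below. Of the targeted genes, the Miwi (Piwil1) record was low, at 2.41 to 4.53 normalized counts in TKO clones and 8.13 to 28.8 in Ctrl clones. These did not overlap, but rested on 3 to 20 reads in each library. All TKO clones lay below all Ctrl clones for 4.23% of all records. The Miwi2 record is not reported here. The Mili (Piwil2) record stood at 3845 to 10084 in TKO clones and 758 to 1028 in Ctrl clones. The Mili allele lacks only exons near the start of the gene, so that a count over the whole record does not check it. Clones of the same genotype and series resembled each other to very different degrees. Over 6287 records with at least 200 reads in each library, the SD of the log2 ratio was 0.116 between TKO 35 and 37, 0.259 between TKO 47 and 48, 0.153 between Ctrl 41 and 43 and 0.359 between Ctrl 33 and 34. No pair agreed within sampling noise, and all 8 libraries were kept as separate replicates.

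Lin28a, the form that dominates in pluripotent stem cells, was abundant in all 8 clones and varied 3.95-fold between the lowest and the highest. It had 3247, 3373, 6481 and 6941 normalized counts in TKO 35, 37, 47 and 48, against 6027, 3243, 11319 and 12799 in Ctrl 33, 34, 41 and 43. The genotypes overlapped, whereas each clone of the forties lay above each clone of the thirties. Within the forties both TKO clones lay below both Ctrl clones, and within the thirties Ctrl 34 was at the level of the TKO clones. The group means were 5010 ± 1973 in TKO clones and 8347 ± 4475 in Ctrl clones (SD, n = 4 each).

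Lin28b, the paralog that stays active in some embryonic and adult tissues, was much lower. It had 134, 153, 448 and 413 normalized counts in TKO 35, 37, 47 and 48, against 387, 533, 495 and 598 in Ctrl 33, 34, 41 and 43. The low values were confined to TKO 35 and TKO 37, and the other 6 clones lay within 387 to 598. The means were 287 ± 167 in TKO clones and 503 ± 88.2 in Ctrl clones (SD, n = 4 each).

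Hmga2, a chromatin-bending protein and a much studied let-7 target, had 1046, 1123, 2044 and 3358 normalized counts in TKO 35, 37, 47 and 48. In Ctrl 33, 34, 41 and 43 it had 1988, 1737, 2805 and 3187. The genotypes overlapped, TKO 48 having the highest value of all, and the 4 clones of the forties lay above the 4 of the thirties. Trim71 (the mouse Lin-41, an RNA-binding ubiquitin ligase that represses differentiation transcripts) had 1887, 1802, 2089 and 2186 normalized counts in TKO 35, 37, 47 and 48, against 2606, 2546, 3115 and 3445 in Ctrl 33, 34, 41 and 43. Each TKO clone lay below each Ctrl clone, with means of 1991 ± 177 in TKO clones and 2928 ± 429 in Ctrl clones (SD, n = 4 each).

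The Igf2bp genes encode RNA-binding proteins that stabilise or localise mRNAs and are otherwise typical of the embryo. Igf2bp1 had 11944, 11764, 17354 and 17912 normalized counts in TKO 35, 37, 47 and 48, against 14830.5, 19679.5, 19849 and 20334 in Ctrl 33, 34, 41 and 43. TKO 35 and 37 were again the lowest, and Ctrl 33 lay apart from the other 3 Ctrl clones. Igf2bp3 had 1692, 1596, 2541 and 2822 normalized counts in TKO 35, 37, 47 and 48, and 1999, 2052, 2377 and 2318 in Ctrl 33, 34, 41 and 43. The TKO clones thus lay below both Ctrl clones in the thirties and above both in the forties. Igf2bp2 was the flattest member, with 2594 to 3069 normalized counts in TKO clones and 2624 to 3191 in Ctrl clones, a 1.23-fold range over all 8.

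**Figure D2:**
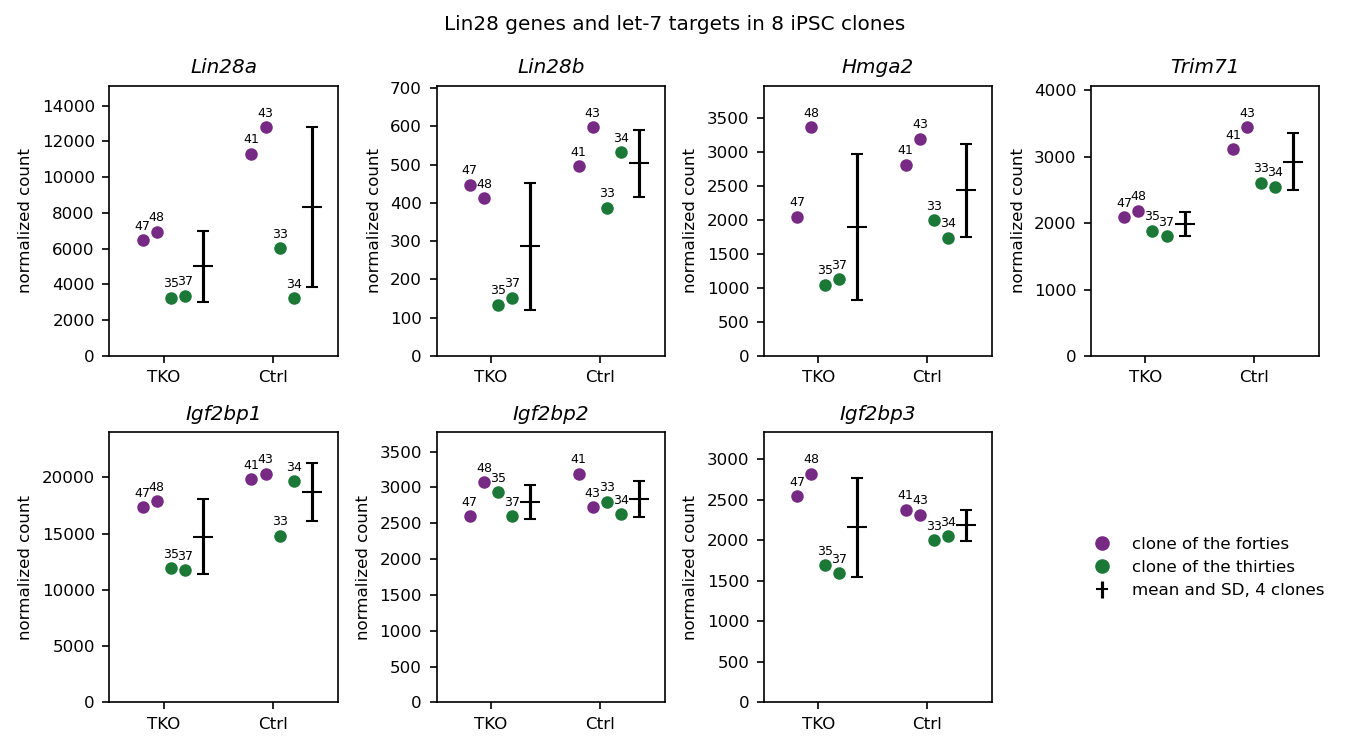
Normalized counts (y axis, linear, from 0) of 7 genes in TKO and Ctrl clones, each point 1 clone with its number, coloured by series, with the mean and SD of the 4 clones beside them. Trim71 separates by genotype, Lin28a, Hmga2 and Igf2bp3 separate by series, and Lin28b is low in TKO 35 and 37 alone.

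Hmga1 and Dis3l2 could not be followed at this depth. Hmga1, a relative of Hmga2, had 3 to 7 reads in each library in its chosen record, 12 of its 14 records were at 0 in all libraries, and its records summed to 3 to 9 reads a library. Dis3l2 had 0 to 11 reads in its chosen record and 1 to 11 over both of its records. In normalized counts, Hmga1 stood at 1.45 to 5.01 in TKO clones and 5.19 to 10.8 in Ctrl clones, and Dis3l2 at 3.01 to 8.55 in TKO clones and 0 to 10.8 in Ctrl clones. Genes with many records were low in general. Only symbols whose best record was protein-coding were looked at. Among those with 5 or more records, 61.6% had their best record under a mean of 10 normalized counts, against 31.4% among those with a single record. The rule for reads that match several records is not given in the sources used here, and its part in these low counts was not tested. The levels of Hmga1 and Dis3l2 are therefore uncertain, as are the changes estimated for them.

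Per kilobase of record, the order of the other 7 genes over the 8 clones was Igf2bp1 (mean 1993 normalized counts per kilobase), Lin28a (1919), Igf2bp2 (722), Hmga2 (511), Igf2bp3 (498), Trim71 (473) and Lin28b (72.9). Igf2bp1 exceeded Lin28a in 6 of 8 clones, with a mean difference of 74.2 and an SD of 829 per kilobase, so that these neighbours did not differ beyond their spread. Hmga2, Igf2bp3 and Trim71 likewise did not separate from each other, as Hmga2 exceeded Igf2bp3 in 4 of 8 clones and Igf2bp3 exceeded Trim71 in 4 of 8. Lin28a exceeded Igf2bp2, and Trim71 exceeded Lin28b, in 8 of 8 clones.

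To ask whether loss of the Piwi genes went with a change in the circuit, TKO clones were compared with Ctrl clones by edgeR's quasi-likelihood test on all 16235 records that passed the filter on low counts, which all 9 genes did. Without regard to series, 0 of the 9 were called at an adjusted p under 0.05, and 0.154% of all records were called lower. An unadjusted p under 0.05 was found for 2 of the 9 (Hmga1 and Trim71), against 2405 of all 16235 records. All 9 estimates were below 0, with a median log2 fold change of -0.36 against -0.01 over all records, although those of Igf2bp2, Igf2bp3 and Dis3l2 changed sign under an alternative. Trim71 stood at -0.56 (SE 0.12, adjusted p = 0.132), Lin28a at -0.74 (SE 0.41, adjusted p = 0.422) and Lin28b at -0.82 (SE 0.39, adjusted p = 0.356). DESeq2 called 1 of the 9, Trim71 (adjusted p = 0.00640), and limma-voom called 0. All TKO clones lay below all Ctrl clones for 2 of the 9 (Trim71 and the barely counted Hmga1), against 4.23% of all records.

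With the series as a term in the model, 2 of the 9 were called lower in TKO clones, against 3.1% of all records. Trim71 fell by 0.55 on the log2 scale (SE 0.08, 1.46-fold, adjusted p = 0.00799) and was called under all 15 alternatives, with adjusted p between 8.79e-09 and 0.0464. Lin28a fell by 0.66 (SE 0.17, 1.59-fold, adjusted p = 0.0498), at the very edge of the threshold, and lost its call under 10 of the 15 alternatives, where adjusted p reached 0.142. Lin28b stood at -1.0 (SE 0.26, adjusted p = 0.0529), Igf2bp1 at -0.37 (SE 0.11, adjusted p = 0.0718) and Hmga2 at -0.46 (SE 0.17, adjusted p = 0.136). Igf2bp2 and Igf2bp3 stood at -0.02 (SE 0.09) and -0.05 (SE 0.11). The count was 1 without Ctrl 33, 41 or 43 or without TKO 35, 37 or 47, and 3 without TKO 48.

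Between the series the differences were broader. With genotype in the model, 6 of the 9 genes were higher in the forties than in the thirties, against 9.84% of all records, and 0 were lower. Lin28a averaged 9385 ± 3152 normalized counts in the forties and 3972 ± 1371 in the thirties (SD, n = 4 each), a log2 fold change of 1.20 (SE 0.17, 2.30-fold, adjusted p = 0.00227). Hmga2 averaged 2849 ± 584 in the forties and 1473 ± 462 in the thirties (SD, n = 4 each), a log2 fold change of 1.01 (SE 0.17, adjusted p = 0.00549). These 2 genes kept their call under all 15 alternatives. Lin28b rose by 0.91 (SE 0.26, adjusted p = 0.0355), Igf2bp3 by 0.46 (SE 0.11, adjusted p = 0.0178), Igf2bp1 by 0.40 (SE 0.11, adjusted p = 0.0292) and Trim71 by 0.28 (SE 0.08, adjusted p = 0.0296). Igf2bp2 stood at 0.08 (SE 0.09, adjusted p = 0.570). All clones of the forties lay above all clones of the thirties for 3 of the 9 (Lin28a, Hmga2 and Igf2bp3), against 8.35% of all records. The count called was 2 without TKO 35 or TKO 37 and 3 without TKO 48 or Ctrl 43. What sets the series apart is not stated, and its source cannot be told apart from any property that the clones of a series share.

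Within the series the genotype differences were unlike in size. In the thirties, 4 of the 9 genes were lower in TKO clones, against 7.05% of all records. Lin28b fell by 1.69 on the log2 scale (SE 0.20, 3.23-fold, adjusted p = 0.00258), Hmga2 by 0.78 (SE 0.20, adjusted p = 0.0406), Igf2bp1 by 0.54 (SE 0.12, adjusted p = 0.0257) and Trim71 by 0.48 (SE 0.10, adjusted p = 0.0173). Lin28a stood at -0.48 (SE 0.23, adjusted p = 0.191) and turned to 0.03 without Ctrl 33 and to -0.87 (adjusted p = 0.00175) without Ctrl 34. The count was 0 without TKO 35, 1 without TKO 37 and 2 without Ctrl 41 or Ctrl 43. Calls over all records were also fewer, 27 without TKO 35 against 1928 with all clones. The estimates without TKO 35 were -1.60 for Lin28b, -0.73 for Hmga2, -0.55 for Igf2bp1 and -0.52 for Trim71. A comparison of 2 clones with 1 assumes that the lone clone varies like the others.

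In the forties, 1 of the 9 was lower in TKO clones, against 1.17% of all records. This was Trim71, which fell by 0.62 (SE 0.10, 1.53-fold, adjusted p = 0.0246). Lin28a stood at -0.85 (SE 0.23, adjusted p = 0.0889), Lin28b at -0.35 (SE 0.19, adjusted p = 0.340), Hmga2 at -0.15 (SE 0.20, adjusted p = 0.727) and Igf2bp3 at 0.19 (SE 0.10, adjusted p = 0.316). The count was 0 without any single clone of the forties and without TKO 35 or TKO 37, and 2 without Ctrl 33 or Ctrl 34, when Lin28a joined Trim71. The difference between the 2 genotype effects (forties minus thirties) was called for 0 of the 9, against 1.3% of all records. An unadjusted p under 0.05 was found for 2 of the 9 (Lin28b and Igf2bp3), against 3037 of all 16235 records. Lin28b came nearest at 1.35 (SE 0.27, adjusted p = 0.0512), followed by Igf2bp3 at 0.49 (SE 0.14, adjusted p = 0.111). DESeq2 called both, with adjusted p of 0.000492 for Lin28b and 0.0452 for Igf2bp3, limma-voom called 1, and the count was 3 without Ctrl 33 and 1 without Ctrl 34 or TKO 47. For Lin28b, edgeR on all 8 clones gave an adjusted p of 0.0127 without a filter and 0.0487 with at least 10 reads in every library, and over the 15 alternatives it lay between 0.000492 and 0.271.

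**Figure D3:**
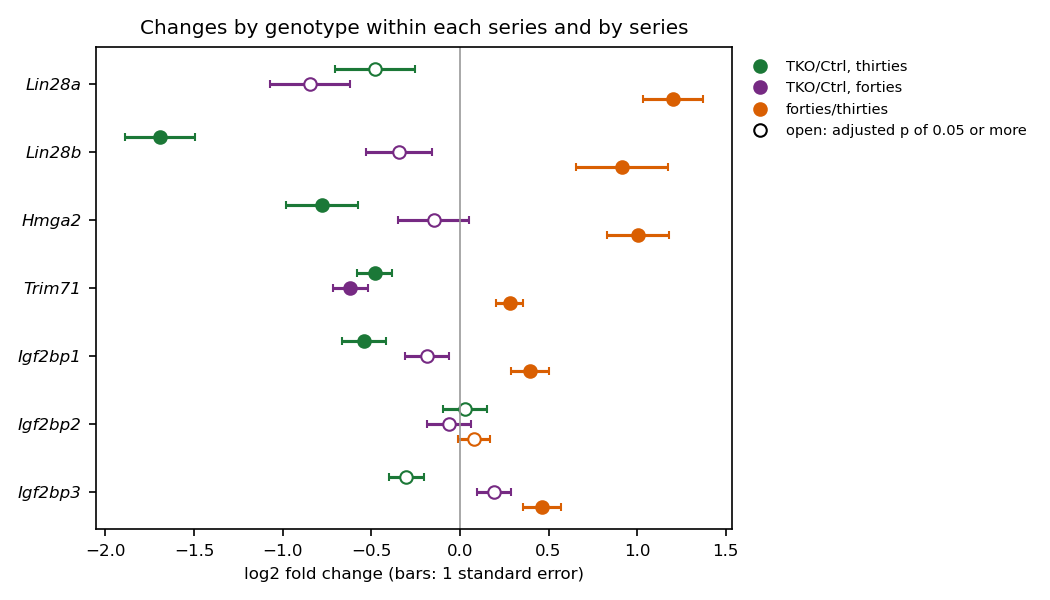
Log2 fold changes (x axis, bars 1 SE) of 7 genes for TKO over Ctrl in the thirties (green), TKO over Ctrl in the forties (purple) and forties over thirties (orange), filled where the adjusted p was under 0.05. Trim71 is filled in all 3 comparisons, Lin28b reaches -1.69 in the thirties, and Igf2bp2 stays within 0.1 of 0.

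Across the 8 clones the members moved together in part. Pearson's r of log2 normalized counts was 0.96 between Lin28b and Igf2bp1, 0.90 between Hmga2 and Igf2bp3, 0.86 between Lin28a and Hmga2 and 0.68 between Lin28a and Lin28b, while Igf2bp2 had 0.06 to 0.41 with the other 6. These 8 points share genotype, series and library, and the values are descriptions. Of 9602 genes whose mean was 100 normalized counts or more, those most like Lin28a were Mapk1ip1l (r = 0.991), Tdh (threonine dehydrogenase, an enzyme of mouse pluripotent cells, 0.986), Tmem88 (0.985), Fat1 (an atypical cadherin, 0.982) and Cnn2 (a calponin, 0.982). Tdh, for example, had 5441 to 9908 normalized counts in TKO clones and 6272 to 13534 in Ctrl clones. The most opposite were B4galt4 and Ttc25 (-0.993 each), Ostm1 (-0.992), Fam161a (-0.991) and Smtnl2 (-0.989). With 8 clones and so many genes, values of this size occur in both directions.

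Reads of let-7 itself were nearly absent, since an mRNA library does not capture mature miRNAs. The 13 let-7 family hairpin records held 36 reads over all libraries together, no record had more than 6 in a library, and 5 records were at 0 throughout. The level of let-7 in these clones was therefore not measured. The wider reach of let-7 was described through its matches in other 3′ UTRs, which could be assigned to 12605 of 14823 tested genes (85.0%). In the forties against the thirties, the median log2 fold change was -0.01 for 10533 genes without a match, -0.01 for 1718 genes with 1 match, -0.02 for 286 genes with 2 matches and -0.03 for the 64 genes with 3 or more once the members were left out. Of those 64 genes, 6 were higher and 7 lower in the forties. Beside these stand the members' own values, 6 of 9 higher with a median of 0.40. Apart from Dis3l2, the members were picked as Lin28 genes or known targets. No test of the difference between the members and the other genes was made.

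For TKO against Ctrl clones in the thirties, the medians were -0.01, -0.04, -0.05 and 0.06 for no match, 1 match, 2 matches and 3 or more matches without the members. In the forties they were 0.03, -0.03, -0.07 and -0.12 for the same classes. The genes with more matches also had longer 3′ UTRs, with medians of 941, 2055, 2942 and 4274 bases, and the part of length was not tested.

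**Figure D4:**
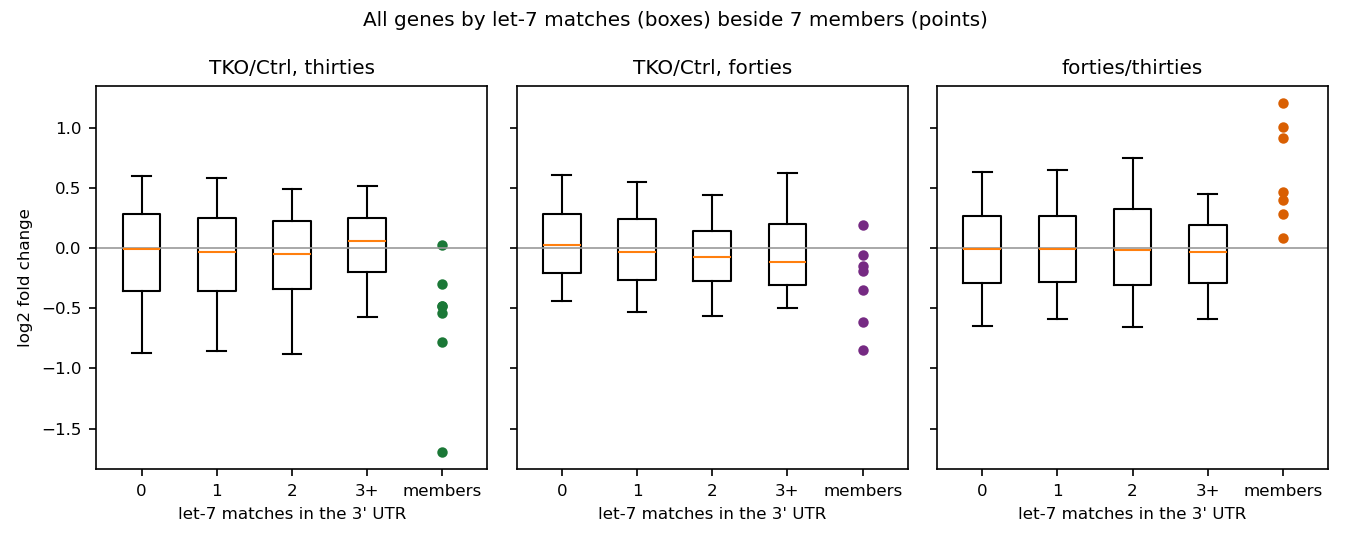
Log2 fold changes (y axis) of all tested genes with 0, 1, 2 and 3 or more let-7 matches (members left out of the last class), for TKO over Ctrl in the thirties, TKO over Ctrl in the forties and forties over thirties. Boxes give the quartiles and median and whiskers the 10th and 90th percentiles, coloured points are the 7 well counted members, and the 4 medians lie between -0.12 and 0.06 in all 3 panels.

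A further list of 30 other let-7 targets, of which 27 could be tested, changed in few genes. TKO against Ctrl clones gave 0 calls. With the series in the model 1 of the 27 was lower (3.70%, near the 3.1% of all records). This was Tgfbr1, a TGF-beta receptor, which fell by 0.43 (adjusted p = 0.0403). In the forties against the thirties, 3 (11.1% of the 27) were higher, near the 9.84% of all records: Ccnd1 (cyclin D1, log2 fold change 1.52, SE 0.36, adjusted p = 0.0184), Mycn (0.54, SE 0.15, adjusted p = 0.0360) and the zinc finger gene Plagl2 (0.46, SE 0.12, adjusted p = 0.0278). Nr6a1, an orphan receptor at 11.1 to 46.0 normalized counts, was the 1 lower, against 9.56% of all records (-1.20, SE 0.28, adjusted p = 0.0164). The list's median was 0.14 against -0.00 over all records.

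The cyclins, like Lin28b, were lowest in TKO 35 and 37. Ccnd1 had 1961, 2124, 8534 and 13848 normalized counts in TKO 35, 37, 47 and 48, against 7365, 4925, 8091 and 10404 in Ctrl 33, 34, 41 and 43. Ccnd2 had 931, 999, 3577 and 4613 in the same TKO clones, against 4954, 3064, 2910 and 4479 in the Ctrl clones. Within the thirties 4 of the 27 (14.8%) were lower in TKO clones, against 7.05% of all records (log2 fold change -2.05 for Ccnd2, -1.59 for Ccnd1, -0.65 for Mycn and -0.63 for Plagl2) and 1 was higher, against 4.83% of all records (Irs2, 0.87). Within the forties 1 (3.70%, against 1.17% of all records) was lower (Nras, -0.58). The difference between the genotype effects of the 2 series (forties minus thirties) passed the test in 3 of the 27 (11.1%), against 1.3% of all records (Ccnd2 at 2.20, Ccnd1 at 1.86 and Mycn at 0.81, adjusted p = 0.0331, 0.0450 and 0.0491).

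Of 17 genes that act on let-7 or other miRNA precursors, all tested, 0 were called in TKO against Ctrl clones and 3 (17.6%, against 3.1% of all records) were lower with the series in the model: Khsrp (-0.42), which promotes let-7 maturation, Xpo5 (-0.41), which exports precursors, and Syncrip (-0.34). In the forties against the thirties 2 (11.8%, near the 9.84% of all records) were higher (Syncrip, 0.64, and Dgcr8, 0.42) and 4 (23.5%, against 9.56% of all records) were lower. The lower ones were Msi1 (-0.94, SE 0.12, adjusted p = 0.00186) and Msi2 (-0.59), RNA-binding proteins of which the first is described as a LIN28 partner, Tut4 (-0.57, SE 0.09, adjusted p = 0.00443), the uridylyl transferase that LIN28A recruits to the let-7 precursor, and Khsrp (-0.35). Tut4 thus stood opposite to Lin28a by series, with 1729 to 2774 normalized counts in TKO clones and 1840 to 3151 in Ctrl clones, the forties below the thirties in both. Within the forties 5 (29.4%, against 1.17% of all records) were lower in TKO clones (Ago2, Khsrp, Xpo5, Dgcr8 and Syncrip). Their adjusted p lay between 0.0251 and 0.0468 (edgeR). Within the thirties 0 were called. The calls of this and the other gene lists were not repeated under the alternatives.

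Markers of other cells moved with some of these results. All 12 fibroblast markers were detected in each library, and their summed normalized count was 21370 to 39386 in TKO clones and 25091 to 64507 in Ctrl clones. In the thirties it was 23401 and 21370 in TKO 35 and 37, against 64507 and 39732 in Ctrl 33 and 34. There 9 of the 12 were lower in TKO clones (median log2 fold change -1.23), against 7.05% of all records. Lin28b, Hmga2, Igf2bp1, Trim71 and the cyclins were lower beside them. In the forties the sum was 39386 and 30423 in TKO 47 and 48, against 25091 and 26040 in Ctrl 41 and 43. There 0 of the 12 were called by genotype. The difference between the genotype effects of the series (forties minus thirties) was called for 5 of the 12, in the direction of Lin28b, Ccnd1 and Ccnd2. It was called for 1.3% of all records in either direction. Between the series 1 of the 12 was called (Prrx1, higher in the forties), or 8.33%, near the 9.84% of all records. The median log2 fold change was 0.76, with 10 of the 12 above 0 and the abundant collagens Col1a1 and Col1a2 below 0. Ctrl 33, with the largest fibroblast sum, belonged to the thirties. Fewer cells of a type and less RNA per cell cannot be told apart in these bulk libraries, and the part of feeder or unreprogrammed cells in the results of the thirties was not tested.

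Some primed epiblast markers moved with the series. The sum of the 8 was 757 to 2312 in TKO clones and 905 to 3532 in Ctrl clones, and its 4 values in the forties (1597 to 3532) lay above its 4 in the thirties (757 to 1460). Of the 8, 3 (37.5%, against 9.84% of all records) were called higher in the forties: Fgf5 (log2 fold change 4.24), Otx2 (1.80) and Cer1 (5.22). These stood beside Lin28a, Hmga2 and Igf2bp3, and their part was not tested. In the thirties Fgf5 was low, at 7.36 to 48.8 normalized counts, and Cer1 was near the floor, at 2.41 to 5.76. In the forties Cer1 had 532 in Ctrl 41, against 64.1 to 119 in the other clones. Dnmt3b, Pou3f1, Pou3f3 and Lef1 were above 0 without a call, and Zic2 was below 0 (-0.23, SE 0.29). Of 7 primitive endoderm markers 6 could be tested, and 3 were also called higher in the forties (Foxa2, Pdgfra and Sox17), against 9.84% of all records. In the thirties these 3 were low, at 2.71 to 6.27, 1.70 to 7.20 and 5.42 to 14.4 normalized counts. Gata4 (log2 fold change -0.05), Gata6 (0.40) and Dab2 (0.37) were not called. The sums of the 7 were 225 to 316 in TKO clones and 235 to 565 in Ctrl clones. The 565 was that of Ctrl 41, and all other clones lay within 225 to 316. Of 6 neural markers 2 were higher in the forties (Tubb3 and Nes), against the same 9.84%. The clones were pluripotent by label, and the summed count of 10 pluripotency markers was 153389 to 166018 in TKO clones and 124025 to 175783 in Ctrl clones. Of the 9 that could be tested, 0 were called between series, against 9.84% of all records called higher and 9.56% lower. Without regard to series, Pou5f1 was lower in TKO clones (-0.61, adjusted p = 0.0380, edgeR). This was 11.1% of the 9, against 0.154% of all records. The paper, which also set a fold cut-off, lists the gene as not affected. Reads of the retroviral Oct4, which is Pou5f1, can fall in this record, and their part was not tested. The Esrrb record held 7 reads over all libraries. The rule for reads that match several records is not given, so the level of Esrrb is uncertain.

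**Figure D5:**
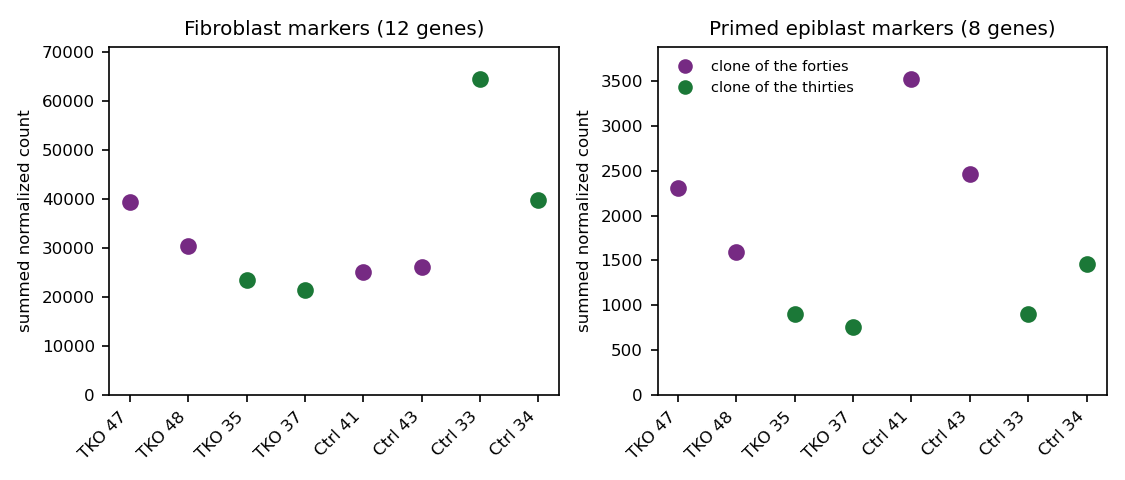
Summed normalized counts (y axis, linear, from 0) of 12 fibroblast markers and 8 primed epiblast markers in each clone, coloured by series. The fibroblast sum is highest in Ctrl 33 (64507) and lowest in TKO 37 (21370), and the primed epiblast sum of each clone of the forties lies above that of each clone of the thirties.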

How the data were processed

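RNA from each of the 8 clones was made into libraries with the Illumina TruSeq RNA kit, and the authors mapped the single-end reads to the GenBank transcriptome of mm9 with BWA (0.7.5a by the submitters' notes). For 27052 RefSeq records the deposited values are unscaled whole-number read counts. The rule for reads that match several records, and strand, are not given in the sources used here. Symbols came from a RefSeq table of GRCm38.p6, used for names only, and named 26321 records, and 731 have none.

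Following the study's methods, records with 5 or more reads in 4 or more libraries were kept (16235) and scaled by median-ratio size factors (0.369 to 2.07). Tests used edgeR 4.0.16 (quasi-likelihood) in R 4.3.3 over all kept records, with Benjamini-Hochberg adjustment at 0.05. DESeq2 1.42.0 and limma 3.58.1 (voom), a filter of 10 reads in every library or none, TMM scaling, counts summed per symbol and leaving out each clone were alternatives. Thinning all libraries to 8983203 reads was added after seeing the data. The methods were tested on simulated counts. Named genes are the 9 members, up to 4 called genes of each further list by size of change or else its 2 most expressed, and the 5 most and 5 least correlated with Lin28a. Other genes named where a count is 5 or fewer were named after their values were seen. Members and lists were chosen with earlier results of these data known. Sequences come from RefSeq (GRCm38.p6, miRNAs) and from the mm9 genome with GENCODE vM1.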

Additional observations from a re-analysis of the deposited data

Results flagged for a closer look

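Igf2bp1 in Ctrl 33 (14830.5 normalized counts) lay far below the other 3 Ctrl clones, with a gap of 0.881 of the group's range, beyond Dixon's 95% critical value for 4 samples. It was the only such value among the 18 groups of 4 clones examined, where chance alone gives about 1 in 20. Ctrl 33 was also the shallowest library (8983203 reads) and had the largest fibroblast marker sum. For Igf2bp3, the TKO clones lay below both Ctrl clones in the thirties and above both in the forties. The difference between the genotype effects was 0.49 on the log2 scale (adjusted p = 0.111, edgeR), so that it did not pass the test on all 8 clones.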

How the results depend on the processing

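No paired analysis was possible because TKO and Ctrl clones share no clone number. Only the 9 genes were followed one by one under the alternatives, so that calls in the further lists and among the markers have no such check. Counts of the 9 genes called moved as follows. TKO against Ctrl gave 1 with DESeq2 in place of 0. With the series in the model the 2 became 1 with TMM scaling or counts summed per symbol, 3 without a filter and 4 with DESeq2. Between the series the 6 became 5 with thinned libraries, and within the thirties the 4 became 3 with limma-voom or thinned libraries. Within the forties the 1 became 2 without a filter and with DESeq2. The interaction went from 0 to 1 without a filter, with at least 10 reads in every library and with limma-voom, and to 2 with DESeq2. Leaving out 1 clone at a time gave 0 to 0 for TKO against Ctrl, 1 to 3 with the series in the model, 2 to 6 for forties against thirties, 0 to 5 within the thirties, 0 to 2 within the forties and 0 to 3 for the interaction. Calls over all records moved as well: the forties against the thirties gave 3149, and 1281 without TKO 35, and TKO against Ctrl in the thirties gave 1928, and 27 without TKO 35. With fewer clones the spread is estimated from fewer values, and the cause of each move was not tested.

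Some estimates changed sign, among them those of the well counted Lin28a within the thirties and Hmga2 within the forties. Leaving out 1 clone gave, for TKO against Ctrl, -0.0674 to 0.0426 for Igf2bp2, -0.17 to 0.10 for Igf2bp3 and -0.41 to 0.25 for Dis3l2. With the series in the model it gave -0.0612 to 0.0393 for Igf2bp2, -0.13 to 0.0166 for Igf2bp3 and -0.43 to 0.45 for Dis3l2. Between the series it gave -0.0580 to 0.52 for Hmga1, which passed the filter only without Ctrl 33, Ctrl 34, TKO 37 or TKO 48, and -0.12 to 0.67 for Dis3l2. Within the thirties it gave -0.87 to 0.0311 for Lin28a and -0.0628 to 0.11 for Igf2bp2, and within the forties -0.55 to 0.17 for Hmga2 and -0.19 to 0.0565 for Igf2bp2. For the interaction it gave -0.88 to 0.0218 for Lin28a and -0.22 to 0.0296 for Igf2bp2. Other settings turned Igf2bp3 for TKO against Ctrl to 0.0247 (thinned libraries), and Dis3l2 to 0.0049 (TMM), to 0.33 (limma-voom) and, with the series in the model, to -0.19 (counts summed per symbol). Of 705 values for single genes under an alternative, 597 kept their direction and side of the threshold, 50 lost a call, 22 gained one and 36 changed sign. Ctrl 33, with 8983203 reads, limits the precision of low genes such as Hmga1 and Dis3l2.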
